A study of Mus musculus with 6 samples.

Results

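*Cd14*, *Ly96*, *Myd88*, *Tirap*, *Ticam1*, *Ticam2*, *Irak1*, *Irak2*, *Irak4* and *Traf6* encode the co-receptors, adaptors, kinases and ubiquitin ligase that work directly beside Toll-like receptor 4 (TLR4), the receptor of macrophages for bacterial lipopolysaccharide (LPS). They were chosen by name, and every probe that carries one of these names in the scanner files was used. All 10 of the 10 listed genes were on the array, with 16 of the 55680 probes tested, and they make up 10 of the 34844 gene names tested.

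CD14 hands LPS to the complex of TLR4 and MD-2, the protein encoded by *Ly96*. At the cell surface the receptor engages the adaptors TIRAP and MyD88, on which the kinases IRAK4, IRAK1 and IRAK2 assemble and pass the signal to the ubiquitin ligase TRAF6, which leads to NF-κB and the MAP kinases. From endosomes the receptor engages TRAM and TRIF, the products of *Ticam2* and *Ticam1*, which lead to interferon-β, and in macrophages both routes are known for the rapid induction of inflammatory genes.

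Gene expression was measured in macrophages differentiated from bone marrow for 7 days with medium that L929 cells had conditioned. The mice were female, wild type, of strain C57/B6 and, per the labels, 6 to 8 weeks old. The published methods give a different age range. There were 3 groups of 2 arrays each: untreated cells, cells given LPS for 4 h, and cells given 10 µM HBX41108, an inhibitor of the deubiquitinating enzyme USP7, for 30 min and then LPS for 4 h (LPS+USP7i). LPS was used at 100 ng/ml according to the text on the series, whereas the protocol attached to the samples gives 100 ng/µl. No solvent control is stated for the cells that received LPS alone, and solvent and inhibitor cannot be told apart. The labels do not say whether the replicates came from separate mice or cultures, so the p values measure only the spread between these samples, which may be technical.

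The 6 Agilent arrays, each read in the Cy3 channel alone, lay on 1 slide and were read in 1 scan. The untreated samples took slide row 1, the LPS samples row 2 and the LPS+USP7i samples row 4, so slide row and treatment cannot be told apart. Between 25002 and 27467 spots per array that were not controls were well above background by the scanner software, and 0 were saturated. Values are log2 intensities after quantile normalization, and a difference of 1 is a 2-fold change. Over probes well above background on all arrays, replicates differed with an SD of 0.29 (untreated), 0.34 (LPS) and 0.40 (LPS+USP7i). The number of arrays limits the precision of every value. A two-sided exact permutation test of 2 against 2 arrays cannot give a p below 0.333, so all tests come from limma, with p values adjusted over all 55680 probes and a threshold of 0.05.

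Marker genes bore out the labelled cell type. Of 7 macrophage markers 6 were on the array under their names, and all 6 were well above background on every array, led by *Csf1r*. Their summed log2 level was 19.22 and 19.23 in untreated cells, 18.88 and 18.97 after LPS, and 18.99 and 18.85 after LPS+USP7i. The LPS and LPS+USP7i arrays overlapped in this sum and lay below the untreated ones. Single markers differed from the sum: *Fcgr1* was at 13.14 and 12.60 (untreated), 13.35 and 13.08 (LPS), and 11.60 and 11.62 (LPS+USP7i), and *Mertk* was at 10.36 and 9.64, 9.94 and 9.72, and 8.94 and 8.34. *Csf1r* was at 18.05 and 17.80, 17.68 and 17.64, and 17.56 and 17.31. These 3 were lowest on the LPS+USP7i arrays, without overlap. *Itgam*, at 13.01 and 13.07, 12.35 and 12.42, and 12.81 and 12.58, and *Lyz2*, at 17.18 and 17.24, 17.02 and 17.02, and 17.29 and 17.05, were instead lowest on the LPS arrays, and *Cd68*, at 17.41 and 17.72, 16.94 and 17.32, and 17.26 and 17.32, overlapped between LPS and LPS+USP7i.

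Of the mast cell, fibroblast and erythroid markers 0 were well above background on all arrays. The mast cell marker *Tpsb2* was so on 5 arrays and *Cpa3* on 2. *Cpa3*, at 4.07 and 2.95 (untreated), 5.05 and 3.18 (LPS), and 4.84 and 2.02 (LPS+USP7i), was higher on the array of replicate 1 in each group. Of 3 T cell markers 1 was well above background on all arrays, *Cd3e*, and the summed level of the 3 lay between 9.18 and 9.57. Of 4 neutrophil markers 3 were, led by *Elane*, and their summed level lay between 11.87 and 12.16. *Elane* itself was lowest after LPS, at 11.09 and 11.36, against 11.53 and 11.75 untreated and 11.78 and 11.91 after LPS+USP7i, without overlap. *Camp*, at 4.91 and 6.05 (untreated), 6.68 and 8.40 (LPS), and 4.95 and 6.70 (LPS+USP7i), and *Ngp*, at 2.77 and 4.80, 3.60 and 7.09, and 2.90 and 6.47, were higher on the array of replicate 2 in each group. *Ly6g* went the other way, at 10.11 and 9.12, 10.49 and 9.66, and 9.81 and 9.08, higher on the array of replicate 1 each time. Among 4 dendritic cell markers 1 was, *Siglech*, and their sum was 15.46 and 15.22 in untreated cells, 14.63 and 14.60 after LPS, and 15.65 and 15.08 after LPS+USP7i, lowest on both LPS arrays. That sum is in effect *Siglech*, and *Zbtb46* went otherwise, at 3.93 and 3.95 (untreated), 6.29 and 6.59 (LPS), and 5.94 and 6.24 (LPS+USP7i), well above background on the 4 treated arrays only. Of 3 B cell markers 1 was, *Cd79a*, and their sum was 7.81 and 5.83 in untreated cells, 9.01 and 6.79 after LPS, and 8.27 and 6.22 after LPS+USP7i. B cell markers were thus higher on the array of replicate 1 in each group. What these marker differences contribute to the results was not tested.

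LPS raised 5 of the 10 genes, *Cd14*, *Myd88*, *Tirap*, *Ticam2* and *Irak2*, where 7.98% of all gene names were called higher, and lowered 1, *Irak1*, where 12.8% were called lower. Adding the inhibitor lowered 4 of those 5, *Cd14*, *Myd88*, *Ticam2* and *Irak2*, relative to LPS alone, where 4.28% of all gene names were called lower. It raised 0 of the 10 by limma, where 5.51% were called higher, although 2, *Ticam1* and *Traf6*, were higher at an unadjusted p under 0.05, as were 4989 of all 34844 gene names. Relative to untreated cells LPS+USP7i cells had 4 genes higher, *Ly96*, *Myd88*, *Ticam1* and *Traf6*, where 6.15% of all gene names were. They had 2 lower, *Ticam2* and *Irak1*, where 8.72% were. With a replicate block in the fit 1 was higher and 1 lower relative to untreated cells, and 2 were lower for LPS+USP7i minus LPS. The median difference of the 10 genes was 0.55 for LPS minus untreated, −0.16 for LPS+USP7i minus LPS and 0.44 for LPS+USP7i minus untreated, beside 0.002, 0.001 and −0.002 over all gene names. Each gene counts here through its brightest probe. Comparisons that have a group in common share its arrays and are not independent of each other. Fewer cells of a type and less RNA per cell cannot be told apart in these bulk samples.

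**Figure D1:**
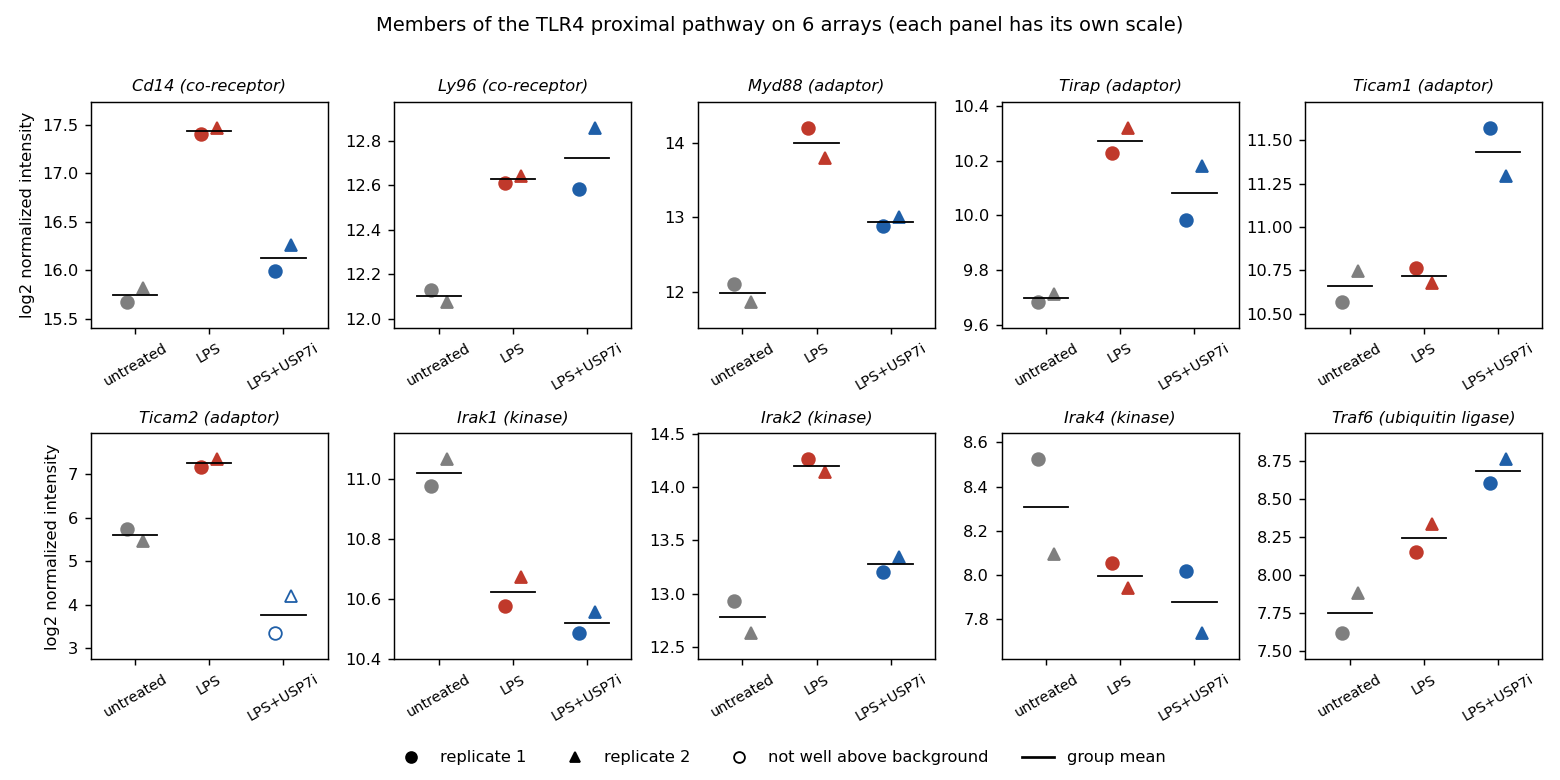
Log2 normalized intensity of the brightest probe of each of the 10 genes on the 6 arrays, with circles for replicate 1, triangles for replicate 2, open symbols for spots not well above background and a line at each group mean. *Cd14*, at 17.41 and 17.47 with LPS and at 15.99 and 16.26 after LPS+USP7i, and *Irak2*, at 14.26 and 14.15 and then 13.21 and 13.34, stand highest on the LPS arrays, whereas *Traf6*, at 8.61 and 8.76, stands highest on the LPS+USP7i arrays.

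*Cd14*, the co-receptor that takes up LPS at the cell surface, measured 15.68 and 15.82 in untreated cells, 17.41 and 17.47 after LPS, and 15.99 and 16.26 after LPS+USP7i. Both LPS arrays stood above the other 4, and the LPS+USP7i arrays lay just above the untreated ones with no overlap. *Cd14* rose by 1.69 with LPS (SE 0.12, adjusted p = 0.00518), a 3.23-fold change. With the inhibitor it fell by 1.31 relative to LPS alone (SE 0.12, adjusted p = 0.0184), with −1.42 between the replicate 1 arrays and −1.21 between the replicate 2 arrays. The remaining difference of 0.38 from untreated cells (SE 0.12, adjusted p = 0.155) missed the threshold. It passed with 75th percentile scaling (adjusted p = 0.0241, range over 15 alternatives 0.0241 to 0.44), where it was 0.79, or 0.24 above the shift of all probes and 0.68 above the median of probes well above background. The LPS call held under all 15 alternatives, with adjusted p up to 0.0376. The inhibitor call ended with only the LPS and LPS+USP7i arrays fitted (adjusted p = 0.0658), without untreated replicate 1 (0.0658) or 2 (0.0658), and without LPS replicate 1 (0.0721) or 2 (0.072), in a range of 0.000679 to 0.0721, while the difference stayed between −1.45 and −1.18.

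*Ly96* encodes MD-2, which binds LPS together with TLR4. Its probe, shown because it crosses an exon junction of the gene and so reads the spliced transcript, spans 3273 bases of the genome at chr1:16696289-16699561 (mm9, plus strand).
Ly96 A_51_P476601: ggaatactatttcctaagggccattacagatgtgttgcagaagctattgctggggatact

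*Ly96* measured 12.13 and 12.08 in untreated cells, 12.61 and 12.64 after LPS, and 12.58 and 12.86 after LPS+USP7i. The untreated arrays were the lowest, and the LPS and LPS+USP7i arrays overlapped. The difference for LPS minus untreated was 0.52 (SE 0.11, adjusted p = 0.0517), which just missed the threshold. It passed under 8 of 15 alternatives, among them 75th percentile scaling (0.91, adjusted p = 0.0123) and either LPS+USP7i array left out (0.026 each), in a range of 0.0123 to 0.204. LPS+USP7i minus untreated was 0.62 (SE 0.11, adjusted p = 0.043), the only *Ly96* difference that passed. That call ended without untreated replicate 1 (0.153) or 2 (0.178), without LPS replicate 1 (0.101) or 2 (0.101), without LPS+USP7i replicate 2 (0.0546), with only these groups fitted (0.101) and with the deposited log2 values (0.104), in a range of 0.0133 to 0.178. A replicate block also ended the call against untreated cells. The inhibitor comparison gave 0.09 (95% CI −0.22 to 0.40, adjusted p = 0.719), and its sign turned with 75th percentile scaling (−0.08) and without LPS+USP7i replicate 2 (−0.04).

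*Myd88* encodes the adaptor shared by most Toll-like receptors and the interleukin-1 receptor. Its single probe was printed in 10 spots on each array, whose SD within an array was at most 0.091. *Myd88* measured 12.12 and 11.87 in untreated cells, 14.20 and 13.79 after LPS, and 12.88 and 13.01 after LPS+USP7i. The groups did not overlap, with LPS highest and LPS+USP7i in between. With LPS *Myd88* rose by 1.999 (SE 0.18, adjusted p = 0.00734), a 4.00-fold change, and this held under all 15 alternatives with adjusted p up to 0.049. With the inhibitor it fell by 1.05 relative to LPS (SE 0.18, adjusted p = 0.0499), with −1.31 between the replicate 1 arrays and −0.78 between the replicate 2 arrays. It stayed 0.95 above untreated cells (SE 0.18, adjusted p = 0.0475). Both of these adjusted p values lay close to the threshold, and a replicate block ended both calls. The inhibitor call ended without untreated replicate 1 (0.11) or 2 (0.11), LPS replicate 1 (0.114) or 2 (0.0652), or LPS+USP7i replicate 1 (0.17) or 2 (0.118), and with only the LPS and LPS+USP7i arrays fitted (0.11), in a range of 0.00697 to 0.17. The call against untreated cells ended without untreated replicate 1 (0.123) or 2 (0.184), LPS replicate 1 (0.052) or 2 (0.052), or LPS+USP7i replicate 1 (0.13) or 2 (0.16), and with only these groups fitted (0.052), in a range of 0.00718 to 0.184.

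*Tirap* encodes the adaptor that brings MyD88 to TLR4 at the plasma membrane. It measured 9.68 and 9.71 in untreated cells, 10.23 and 10.32 after LPS, and 9.98 and 10.18 after LPS+USP7i. The groups again did not overlap, although LPS+USP7i replicate 2 came within 0.05 of LPS replicate 1. With LPS *Tirap* rose by 0.58 (SE 0.09, adjusted p = 0.0266), a 1.49-fold change. The difference for LPS+USP7i minus LPS was −0.19 (95% CI −0.45 to 0.07, adjusted p = 0.365). LPS+USP7i minus untreated was 0.38 (SE 0.09, adjusted p = 0.0855) and passed with 75th percentile scaling (0.43, adjusted p = 0.0494, range 0.0494 to 0.274), where it lay −0.12 from the shift of all probes and 0.31 above the median of probes well above background. The LPS call ended without untreated replicate 1 (0.122) or 2 (0.118), without LPS replicate 1 (0.084) or 2 (0.0998), and with the deposited log2 values (0.099), in a range of 0.0146 to 0.122.

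*Ticam1* encodes TRIF, the adaptor of the endosomal route. It measured 10.57 and 10.75 in untreated cells, 10.76 and 10.68 after LPS, and 11.57 and 11.29 after LPS+USP7i. Untreated and LPS arrays overlapped, and both LPS+USP7i arrays stood above the other 4. LPS minus untreated was 0.06 (95% CI −0.30 to 0.42, adjusted p = 0.885) and turned to −0.03 without untreated replicate 1. *Ticam1* rose by 0.77 in LPS+USP7i relative to untreated cells (SE 0.13, adjusted p = 0.0364), a 1.71-fold change. A replicate block ended this call. Against LPS alone the difference was 0.71 (SE 0.13, adjusted p = 0.0566), which missed the threshold but passed under 5 of 15 alternatives, such as normexp background correction (0.00969) and 75th percentile scaling (0.0429), in a range of 0.00969 to 0.18. The call against untreated cells ended without untreated replicate 1 (0.148) or 2 (0.108), LPS replicate 1 (0.0888) or 2 (0.0888), or LPS+USP7i replicate 1 (0.0812), with only these groups fitted (0.0888) and with the deposited log2 values (0.0542), in a range of 0.00561 to 0.148.

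*Ticam2* encodes TRAM, which links TRIF to TLR4. Its probe was dim, at 5.74 and 5.48 in untreated cells, 7.17 and 7.34 after LPS, and 3.34 and 4.19 after LPS+USP7i. It was well above background on the 4 untreated and LPS arrays and not well above background on both LPS+USP7i arrays, which were the lowest. With LPS *Ticam2* rose by 1.65 (SE 0.32, adjusted p = 0.0412). In LPS+USP7i cells it was at least 7.87-fold lower than with LPS alone (adjusted p = 0.0183) and at least 2.51-fold lower than in untreated cells (adjusted p = 0.0396). These bounds set the mean of the brighter group against, on each LPS+USP7i array, whichever was higher, its own signal or the lowest signal of any probe well above background. The fitted differences, which are no bounds, were −3.49 and −1.84. The bounds hold only for the background correction used here, since other values gave smaller differences: with normexp they were −1.53 and −0.57, and LPS minus untreated was 0.97. The deposited log2 values gave −2.38 and −0.98. The direction stayed the same under all of them. A replicate block ended the LPS call and the call of LPS+USP7i against untreated cells. The LPS call ended without untreated replicate 1 (adjusted p = 0.132) or 2 (0.177) and without LPS replicate 1 (0.138) or 2 (0.155), in a range of 0.00093 to 0.177. The inhibitor call ended without untreated replicate 1 (0.0672) or 2 (0.0673), without LPS replicate 1 (0.0741) or 2 (0.0736), and with only the LPS and LPS+USP7i arrays fitted (0.0673), in a range of 0.000547 to 0.0741. The call against untreated cells ended without untreated replicate 1 (0.166) or 2 (0.137), without LPS replicate 1 (0.0987) or 2 (0.0987), and with only these groups fitted (0.0987), in a range of 0.0082 to 0.166.

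*Irak4* encodes the kinase that joins MyD88 first, and 2 probes measured it. The dimmer one is shown because it too crosses an exon junction, spanning 728 bases at chr15:94384447-94385174 (mm9, plus strand).
Irak4 A_52_P166266: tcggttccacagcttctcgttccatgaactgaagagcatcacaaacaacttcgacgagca

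The brighter *Irak4* probe, A_52_P67440, measured 8.52 and 8.09 in untreated cells, 8.05 and 7.94 after LPS, and 8.02 and 7.74 after LPS+USP7i. LPS and LPS+USP7i arrays overlapped, and the untreated arrays lay above them by as little as 0.04 (LPS minus untreated −0.31, 95% CI −0.84 to 0.22, adjusted p = 0.436). Probe A_52_P166266 measured 7.31 and 7.16 in untreated cells, 6.75 and 6.17 after LPS, and 6.89 and 6.73 after LPS+USP7i. Here the untreated arrays were the highest, LPS replicate 2 was the lowest, and LPS replicate 1 fell between the LPS+USP7i arrays. LPS minus untreated was −0.77 (SE 0.22, adjusted p = 0.107), which passed with normexp (−0.51, adjusted p = 0.0201), with dim probes left out (0.038) and without LPS replicate 1 (−1.06, adjusted p = 0.0431), in a range of 0.0201 to 0.328. No *Irak4* difference passed as reported in any comparison, and the inhibitor comparison gave −0.12 (95% CI −0.65 to 0.41) and 0.35 (95% CI −0.27 to 0.97) for the probes in this order. The sign of the −0.12 turned with the mean over both probes (0.11) and without LPS+USP7i replicate 2 (0.02).

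*Irak1*, the kinase that IRAK4 activates, had 3 probes. The brightest, A_55_P2099080, measured 10.98 and 11.07 in untreated cells, 10.58 and 10.67 after LPS, and 10.48 and 10.56 after LPS+USP7i. Each untreated array lay above all others, and both LPS arrays lay above both LPS+USP7i arrays. By this probe *Irak1* fell by 0.40 with LPS (SE 0.07, adjusted p = 0.0369), a 1.32-fold change, and by 0.50 in LPS+USP7i relative to untreated cells (SE 0.07, adjusted p = 0.0271). Probe A_55_P2153862 measured 10.46 and 10.43 in untreated cells, 10.15 and 9.99 after LPS, and 10.33 and 10.14 after LPS+USP7i. Probe A_52_P149835 measured 9.94 and 9.89, 9.57 and 9.27, and 9.71 and 9.53 in the same order. Both further probes were highest on the untreated arrays and overlapped between LPS and LPS+USP7i. Their LPS differences of −0.37 and −0.49 missed the threshold (adjusted p = 0.0946 and 0.0931) and passed with normexp (0.0387 and 0.0374), in ranges of 0.0387 to 0.288 and 0.0374 to 0.288. Against untreated cells these further probes also missed the threshold in LPS+USP7i. They gave −0.21 (95% CI −0.49 to 0.08, adjusted p = 0.35) and −0.30 (95% CI −0.67 to 0.08, adjusted p = 0.303). The inhibitor comparison passed for no *Irak1* probe, at −0.10 (95% CI −0.31 to 0.10), 0.17 and 0.20, and with the mean over all probes it was 0.09.

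The LPS call of *Irak1* ended without untreated replicate 1 (adjusted p = 0.106) or 2 (0.158), LPS replicate 1 (0.122) or 2 (0.0767), or LPS+USP7i replicate 1 (0.064) or 2 (0.064), and with only these groups fitted (0.064), normexp (0.0514), the deposited log2 values (0.173) or 75th percentile scaling (−0.26, 0.119), in a range of 0.0251 to 0.173. The call of LPS+USP7i against untreated cells ended without untreated replicate 1 (0.0943) or 2 (0.125), LPS replicate 1 (0.0559) or 2 (0.0558), or LPS+USP7i replicate 1 (0.087) or 2 (0.0689), and with only these groups fitted (0.0559), the deposited log2 values (0.0779) or the mean over all probes (−0.33, 0.0691), in a range of 0.0111 to 0.125. The direction was lower than untreated under every one of these alternatives.

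*Irak2*, the kinase that sustains the MyD88 signal, had 2 probes, at positions 1870 and 3079 of its transcript. The upstream probe, shown because it gave the widest LPS difference of all 16 probes, lies at chr6:113643695-113643754 (mm9, plus strand).
Irak2 A_55_P2082974: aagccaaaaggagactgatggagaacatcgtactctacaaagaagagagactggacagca

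Probe A_55_P2082974 of *Irak2* measured 7.34 and 7.48 in untreated cells, 10.27 and 10.18 after LPS, and 8.98 and 9.29 after LPS+USP7i. The brighter probe, A_55_P2082979, measured 12.93 and 12.62, 14.26 and 14.15, and 13.21 and 13.34 in the same order. By both probes the groups did not overlap, with untreated lowest, LPS+USP7i in between and LPS highest. With LPS *Irak2* rose by 2.81 by the upstream probe (SE 0.13, adjusted p = 0.00319) and by 1.43 by the brighter one (SE 0.14, adjusted p = 0.0083), a 7.03-fold and a 2.69-fold change. The 95% CIs of these differences, 2.45 to 3.18 and 1.05 to 1.80, did not overlap, so the 2 probes gave different sizes and the same direction. With the inhibitor *Irak2* fell by 1.09 (SE 0.13, adjusted p = 0.0266) and by 0.93 (SE 0.14, adjusted p = 0.0365) relative to LPS. Between the replicate 1 arrays and between the replicate 2 arrays the differences were −1.29 and −0.89 for the upstream probe and −1.06 and −0.80 for the brighter one. A replicate block ended the inhibitor call of the brighter probe and left that of the upstream one. Compared with untreated cells the upstream probe stayed higher by 1.72 (SE 0.13, adjusted p = 0.00841), while the brighter one stood at 0.50 (SE 0.14, adjusted p = 0.111) and missed the threshold.

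Both LPS calls of *Irak2* held under every alternative, 14 for the upstream probe (adjusted p up to 0.0323) and 15 for the brighter one (up to 0.0489). The inhibitor call of the upstream probe ended without untreated replicate 1 (0.0806) or 2 (0.0806), LPS replicate 1 (0.107) or 2 (0.089), or LPS+USP7i replicate 1 (0.0555), and with only the LPS and LPS+USP7i arrays fitted (0.0806), in a range of 0.00372 to 0.107. That of the brighter probe ended without untreated replicate 1 (0.0671) or 2 (0.0671), LPS replicate 1 (0.139) or 2 (0.109), or LPS+USP7i replicate 1 (0.128) or 2 (0.0823), and with only those groups fitted (0.0671), in a range of 0.00232 to 0.139. The upstream probe's call against untreated cells ended without untreated replicate 1 (0.0527) or 2 (0.053), in a range of 0.000706 to 0.053. The brighter probe passed against untreated cells under 3 of 15 alternatives. These were 75th percentile scaling (0.75, adjusted p = 0.0198), normexp (0.0346) and the mean over both probes (1.11, adjusted p = 0.00972). The 0.75 lay 0.20 above the shift of all probes under that scaling and 0.64 above the median of probes well above background.

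*Traf6* encodes the ubiquitin ligase that the kinases hand the signal to, and 3 probes carried its name. Each was annotated to a different transcript record, and whether they read the same transcript was not tested. The brightest, A_52_P510215, measured 7.61 and 7.88 in untreated cells, 8.15 and 8.34 after LPS, and 8.61 and 8.76 after LPS+USP7i. The groups did not overlap, and here LPS+USP7i was the highest. The differences were 0.50 for LPS minus untreated (SE 0.14, adjusted p = 0.0939) and 0.44 for LPS+USP7i minus LPS (SE 0.14, adjusted p = 0.161), and *Traf6* rose by 0.94 in LPS+USP7i relative to untreated cells (SE 0.14, adjusted p = 0.0261). Probe A_55_P1998380 measured 7.87 and 7.60 in untreated cells, 7.58 and 7.45 after LPS, and 9.28 and 8.23 after LPS+USP7i. Both LPS+USP7i arrays were again the highest but lay 1.05 apart, and 0 of its 3 differences passed. Without LPS+USP7i replicate 2 it passed against LPS (1.77, adjusted p = 0.0357, range 0.0357 to 0.387) and against untreated cells (1.55, adjusted p = 0.0386, range 0.0386 to 0.544). Probe A_55_P2151689 measured 3.07 and 2.98, 3.15 and 2.04, and 4.23 and 1.96 in the same order. It was well above background on 1 of 6 arrays, its groups overlapped, and it gives no fold.

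The *Traf6* call of LPS+USP7i against untreated cells ended without untreated replicate 1 (adjusted p = 0.0941) or 2 (0.0697), LPS replicate 1 (0.0605) or 2 (0.0605), or LPS+USP7i replicate 1 (0.0742) or 2 (0.0942). It also ended with only these groups fitted (0.0605) and with the mean over all 3 probes (0.68, 0.394), in a range of 0.00725 to 0.394. LPS minus untreated passed with 75th percentile scaling (0.0476, range 0.0324 to 0.98), where the difference of 0.50 lay −0.01 from the shift of all probes and 0.41 above the median of probes well above background, and the mean over all probes turned it to −0.05. Both means include the dim probe A_55_P2151689, while the other 2 probes gave 0.50 and −0.22 for LPS minus untreated and 0.94 and 1.02 for LPS+USP7i minus untreated.

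**Figure D2:**
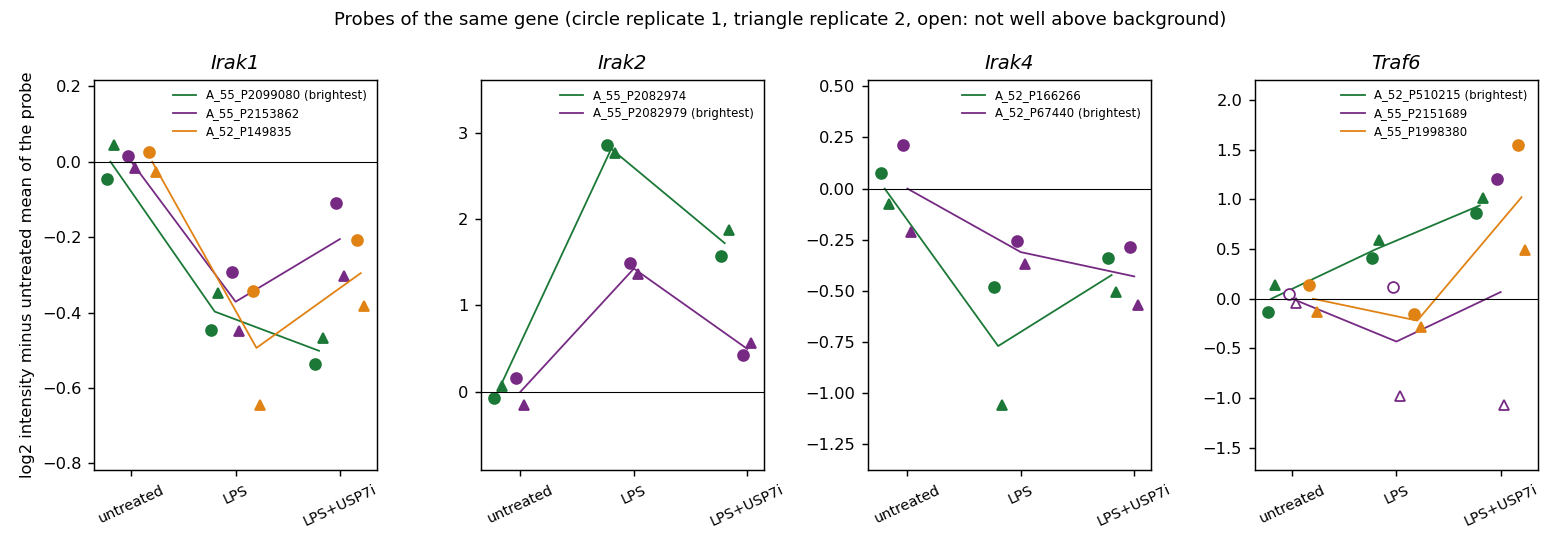
Log2 intensity of each probe of the 4 genes with more than 1 probe, as the difference from the probe's own untreated mean, with circles for replicate 1, triangles for replicate 2, open symbols for spots not well above background and lines through the group means. Both *Irak2* probes rise with LPS, by 2.81 and 1.43, and stand lower with LPS+USP7i, and the *Traf6* probes A_52_P510215 and A_55_P1998380 stand at 0.94 and 1.02 in LPS+USP7i cells, while A_55_P2151689 was well above background on 1 of 6 arrays.

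**Figure D3:**
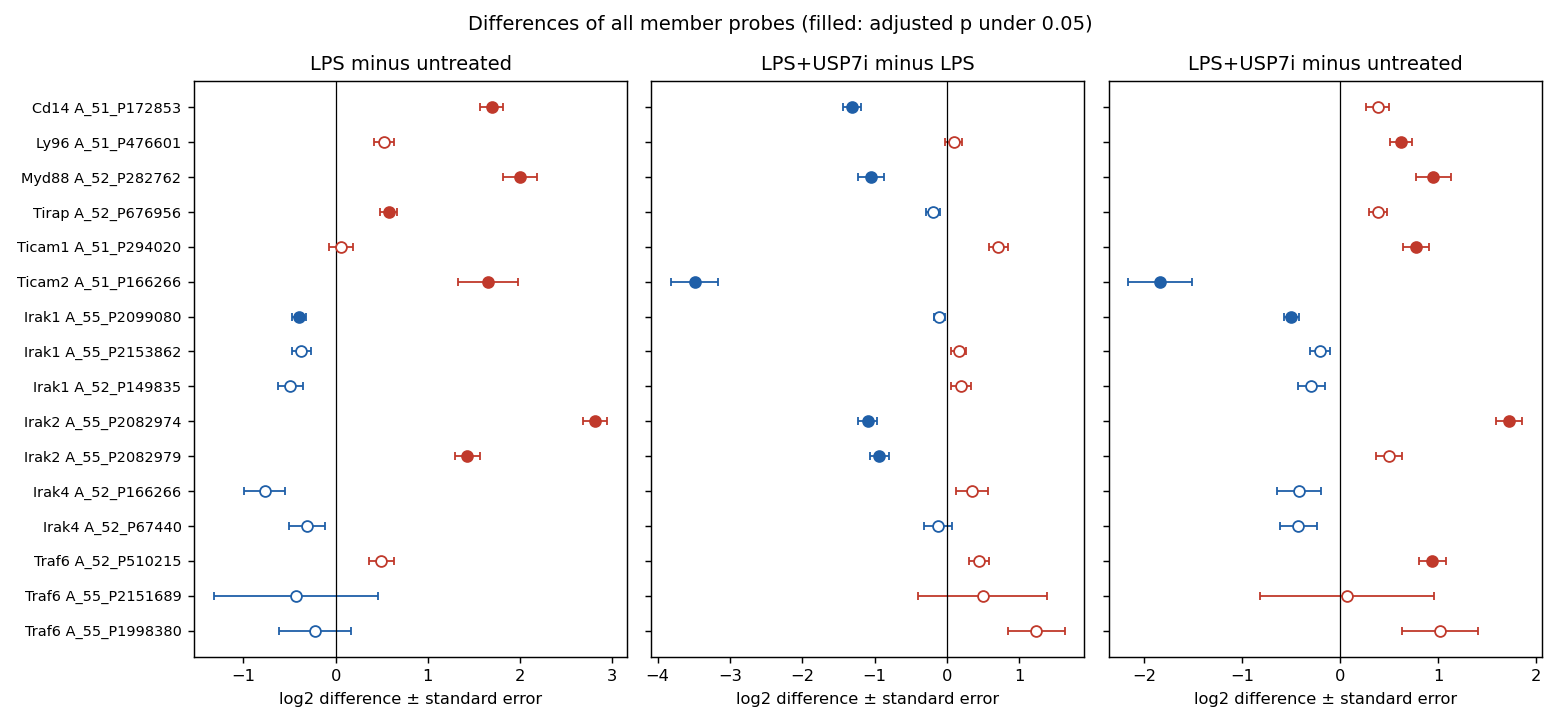
Log2 difference with its standard error for each of the 16 probes in the 3 comparisons, filled where the adjusted p is under 0.05 and red for higher, blue for lower. Of the 16 probes, 6 were called higher and 1 lower for LPS minus untreated, 0 higher and 5 lower for LPS+USP7i minus LPS, and 5 higher and 2 lower for LPS+USP7i minus untreated. Over all 55680 probes the counts in that order were 3948 and 5947, 2595 and 2109, and 3147 and 4086.

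Placed side by side, the 10 genes are described here by the order of their 3 group means, including differences that missed the threshold. By the brightest probe of each, *Cd14*, *Myd88* and *Irak2* were highest with LPS, with differences of 1.69, 1.999 and 1.43 from untreated cells. They stood lower with the inhibitor, at −1.31, −1.05 and −0.93 from LPS. *Ticam2* shared the direction of both differences and was the only member not well above background in a whole group. *Tirap* rose with LPS and missed the threshold with the inhibitor. *Ticam1* and *Traf6* were highest in LPS+USP7i cells, and *Ly96* was about level between LPS and LPS+USP7i, at 12.63 and 12.72 on average. *Irak1* and *Irak4* were highest in untreated cells. Differences between genes in their response were not tested.

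Scaling each array to its 75th percentile instead of quantile normalization shifted the median of all probes to 0.51 for LPS minus untreated and to 0.55 for LPS+USP7i minus untreated, and left it at 0.002 for LPS+USP7i minus LPS, from values within 0.004 of 0. The 75th percentile of the signal itself was 324.5 and 458.1 in untreated cells, 241.1 and 288.4 after LPS, and 233.1 and 268.2 with LPS+USP7i. With that scaling 79.3% of called probes were higher for LPS minus untreated, against 39.9% as reported, and 82.7% for LPS+USP7i minus untreated, against 43.5%. Relative to the shift of all probes, the LPS differences were 1.74 for *Cd14*, 1.92 for *Myd88*, 1.40 for *Irak2*, 1.18 for *Ticam2*, 0.40 for *Ly96* and 0.12 for *Tirap*. They were −0.01 for *Traf6*, −0.32 for *Ticam1*, −0.77 for *Irak1* and −0.82 for *Irak4*. Against the shift of all probes *Traf6* and *Ticam1* turned. The median of probes well above background on all arrays was −0.15 for LPS minus untreated and −0.07 for LPS+USP7i minus untreated as reported, and 0.09 and 0.11 with 75th percentile scaling. Relative to the 0.09, the LPS differences with that scaling were 2.15 for *Cd14*, 2.34 for *Myd88*, 1.82 for *Irak2*, 1.60 for *Ticam2*, 0.82 for *Ly96*, 0.54 for *Tirap*, 0.41 for *Traf6*, 0.10 for *Ticam1*, −0.35 for *Irak1* and −0.40 for *Irak4*. Against these brighter probes all 10 genes kept the direction reported.

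The inhibitor comparison rested on the untreated arrays for its estimate of the spread. With only the LPS and LPS+USP7i arrays fitted, limma called 0 of 55680 probes (smallest adjusted p 0.0561), although 6051 were higher and 5206 lower at an unadjusted p under 0.05. Without untreated replicate 1 and without untreated replicate 2 the smallest adjusted p was 0.0561 as well, and 0 members were called. With all groups in the fit 2595 probes were higher and 2109 lower. The members called lower fell from 4 to 0 without LPS replicate 1, to 0 without LPS replicate 2, and to 2 without LPS+USP7i replicate 1 or 2. Leaving out an array leaves 1 in its group, whose spread is taken to equal that of the other groups.

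**Figure D4:**
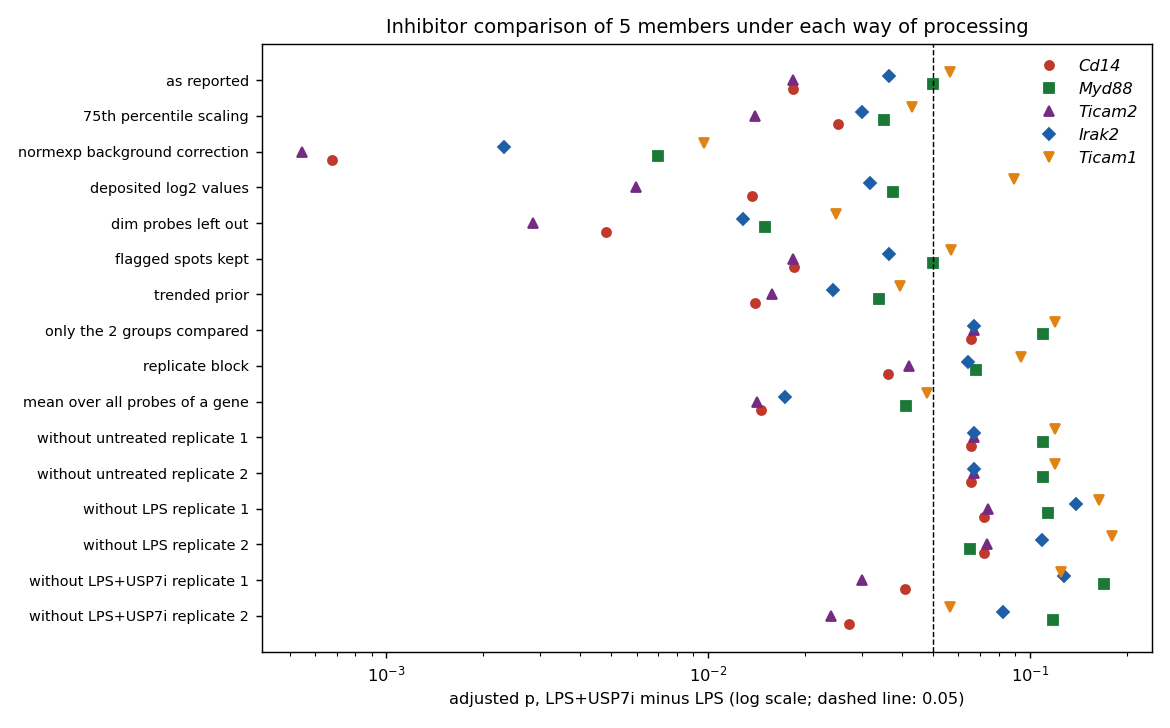
Adjusted p of LPS+USP7i minus LPS, on a log axis, for the brightest probes of 5 genes as reported and under 15 alternative ways of processing, with a dashed line at 0.05. As reported *Cd14* lies at 0.0184, *Ticam2* at 0.0183, *Irak2* at 0.0365, *Myd88* at 0.0499 and *Ticam1* at 0.0566, and with only the 2 groups compared all 5 lie to the right of the line.

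Other genes of the pathway were followed in 4 lists of 38 genes in all. For LPS minus untreated 16 were higher and 11 lower, beside 7.98% and 12.8% of all gene names. For LPS+USP7i minus LPS 2 were higher and 6 lower, beside 5.51% and 4.28%, so the 2 higher genes are about the share of all gene names. For LPS+USP7i minus untreated 11 were higher and 7 lower, beside 6.15% and 8.72%. Their median differences were 0.20, −0.23 and 0.21 in that order. The shares of all gene names given here apply to the counts of each single list below as well. The counts depended on single arrays. For LPS minus untreated they became 10 higher and 2 lower without untreated replicate 1, 9 and 2 without untreated replicate 2, 14 and 8 without LPS+USP7i replicate 1 or 2, 12 and 2 without LPS replicate 1, and 11 and 3 without LPS replicate 2. For LPS+USP7i minus LPS all calls ended without untreated replicate 1 and without untreated replicate 2. Most ended without LPS replicate 1 and without LPS replicate 2. Without LPS+USP7i replicate 1 or 2 the counts stayed near those reported. For LPS+USP7i minus untreated they became 6 and 2 without untreated replicate 1, 4 and 2 without untreated replicate 2, 8 and 4 without LPS replicate 1, LPS replicate 2 or LPS+USP7i replicate 1, and 8 and 5 without LPS+USP7i replicate 2.

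In the list of the receptor and LPS handling, 1 of 6 genes was higher and 2 were lower after LPS, and 0 passed with the inhibitor by limma, although 1 was higher at an unadjusted p under 0.05, a level that 4989 of 34844 gene names reached. *Tlr4*, the receptor itself, measured 11.63 and 11.49 in untreated cells, 10.78 and 10.74 after LPS, and 11.10 and 11.44 after LPS+USP7i. The LPS arrays were the lowest and the groups did not overlap. *Tlr4* fell by 0.80 with LPS (SE 0.14, adjusted p = 0.0305), and LPS+USP7i minus LPS was 0.51 (SE 0.14, adjusted p = 0.124), which passed with normexp alone (0.0454, range 0.0454 to 0.306). The mean over all *Tlr4* probes gave −0.40 and 0.32 for these. A replicate block ended the LPS call of *Tlr4*. The LPS call ended with 75th percentile scaling and without any one of the untreated or LPS arrays, in a range of 0.00611 to 0.135. *Hsp90b1*, the chaperone that folds Toll-like receptors, fell by 0.62 (SE 0.07, adjusted p = 0.0103). That call ended without untreated replicate 1, untreated replicate 2 or LPS replicate 1, with the deposited log2 values and with 75th percentile scaling (−0.05, adjusted p = 0.66), in a range of 0.00255 to 0.66.

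In the ubiquitin, TAK1 and IKK step 6 of 16 genes were higher and 5 lower after LPS, and 0 were higher and 3 lower with the inhibitor, where 4 were higher and 5 lower at an unadjusted p under 0.05 by limma, beside 4989 and 4067 of 34844 gene names. *Peli1*, a ubiquitin ligase that acts on the IRAK kinases, rose by 4.36 with LPS (SE 0.19, adjusted p = 0.00304), and LPS+USP7i minus LPS was −1.05 (SE 0.19, adjusted p = 0.0539), which passed under 6 of 15 alternatives (range 0.00792 to 0.174). The TAK1 partners differed. *Tab3* stood at 0.02 (SE 0.09, adjusted p = 0.97) and at −0.03 without LPS replicate 2. *Tab2* rose by 1.44 (SE 0.12, adjusted p = 0.00684) and *Tab1* fell by 2.11 (SE 0.08, adjusted p = 0.0028), and the calls of *Tab2* and *Tab1* held under all 15 alternatives. *Ikbkb*, the kinase IKKβ, measured 9.92 and 9.77 in untreated cells, 10.98 and 10.93 after LPS, and 9.66 and 9.66 after LPS+USP7i. Its LPS arrays stood alone at the top and its LPS+USP7i arrays lay below the untreated ones. *Ikbkb* rose by 1.11 with LPS (SE 0.08, adjusted p = 0.00494) and fell by 1.29 with the inhibitor (SE 0.08, adjusted p = 0.012). For *Ikbkg* LPS+USP7i minus LPS was 1.16 (SE 0.21, adjusted p = 0.0542), which passed under 5 of 15 alternatives. Relative to untreated cells *Ikbkg* rose by 1.82 in LPS+USP7i (SE 0.21, adjusted p = 0.0163). That call ended without any one of the untreated or LPS+USP7i arrays. *Rnf31*, the catalytic subunit of the linear ubiquitin ligase, rose by 1.95 (SE 0.17, adjusted p = 0.00718) and fell by 1.56 with the inhibitor (SE 0.17, adjusted p = 0.0235), and *Tab2* fell by 1.12 (SE 0.12, adjusted p = 0.0232). The LPS call of *Rnf31* ended without untreated replicate 2 (range 0.000369 to 0.0509).

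In the TRIF branch 4 of 6 genes were higher and 1 was lower with LPS, and 1 was higher and 1 lower with the inhibitor. At an unadjusted p under 0.05 by limma 1 was higher and 2 lower with the inhibitor, beside 4989 and 4067 of 34844 gene names. *Ikbke*, a kinase that phosphorylates interferon regulatory factors, rose by 2.61 (SE 0.21, adjusted p = 0.00616), and *Tank*, its scaffold, rose by 2.83 (SE 0.08, adjusted p = 0.0025). With the inhibitor *Ikbke* fell by 1.64 (SE 0.21, adjusted p = 0.0289), while *Tank* stood at −0.23 (SE 0.08, adjusted p = 0.222), and at −0.41 with the mean over all probes. *Traf3*, the ubiquitin ligase that TRIF engages, measured 11.16 and 11.24 in untreated cells, 10.80 and 10.64 after LPS, and 12.14 and 12.28 after LPS+USP7i. Its LPS arrays were the lowest and its LPS+USP7i arrays the highest. *Traf3* rose by 1.49 with the inhibitor relative to LPS (SE 0.10, adjusted p = 0.0126).

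Among the brakes on the pathway 5 of 10 genes were higher and 3 lower after LPS, and 1 was higher and 2 were lower with the inhibitor. At an unadjusted p under 0.05 by limma 1 was higher and 7 lower with the inhibitor, beside 4989 and 4067 of 34844 gene names. *Tnfaip3*, which encodes the ubiquitin-editing enzyme A20, rose by 4.89 with LPS (SE 0.08, adjusted p = 0.00155), and *Socs1*, a suppressor of cytokine signaling, by 7.45 (SE 0.37, adjusted p = 0.00339). With the inhibitor these stood at −0.39 (SE 0.08, adjusted p = 0.0772) and −1.72 (SE 0.37, adjusted p = 0.0785). The first passed with normexp alone (0.0242, range 0.0242 to 0.209) and the second under 5 of 15 alternatives (range 0.00984 to 0.229). *Irak3*, the IRAK relative that restrains MyD88 signaling, measured 10.40 and 10.27 in untreated cells, 12.24 and 12.03 after LPS, and 10.04 and 10.56 after LPS+USP7i. The LPS arrays stood apart, and the untreated arrays fell between the LPS+USP7i arrays. *Irak3* rose by 1.80 with LPS (SE 0.21, adjusted p = 0.0126) and fell by 1.83 with the inhibitor (SE 0.21, adjusted p = 0.0249). Its LPS call ended without any one of the untreated or LPS arrays (range 0.000667 to 0.0771). *Tnip1*, a partner of A20, rose by 1.89 (SE 0.07, adjusted p = 0.00289) and fell by 0.62 with the inhibitor (SE 0.07, adjusted p = 0.0267). *Tollip*, which binds IRAK1 and restrains it, measured 12.29 and 12.36 in untreated cells, 11.91 and 11.74 after LPS, and 13.64 and 13.22 after LPS+USP7i. It was highest on both LPS+USP7i arrays and rose by 1.61 relative to LPS (SE 0.17, adjusted p = 0.0214). *Sarm1* was well above background on 0 of 6 arrays.

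All 8 inhibitor calls in these lists ended with only the LPS and LPS+USP7i arrays fitted, without untreated replicate 1 and without untreated replicate 2, with adjusted p up to 0.0561 for *Ikbkb*, 0.0573 for *Traf3*, 0.0812 for *Tollip*, 0.094 for *Tnip1*, 0.0942 for *Ikbke*, 0.0949 for *Tab2*, 0.0959 for *Rnf31* and 0.101 for *Irak3* over 15 alternatives. *Ikbkb* and *Traf3* kept their calls without either LPS array and without either LPS+USP7i array, and the other 6 lost theirs without LPS replicate 1 and without LPS replicate 2. *Ikbke* also lost its call without either LPS+USP7i array, and *Tnip1* without LPS+USP7i replicate 1, with the deposited log2 values and with the mean over all probes. A replicate block ended the calls of *Tab2*, *Rnf31* and *Irak3*.

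**Figure D5:**
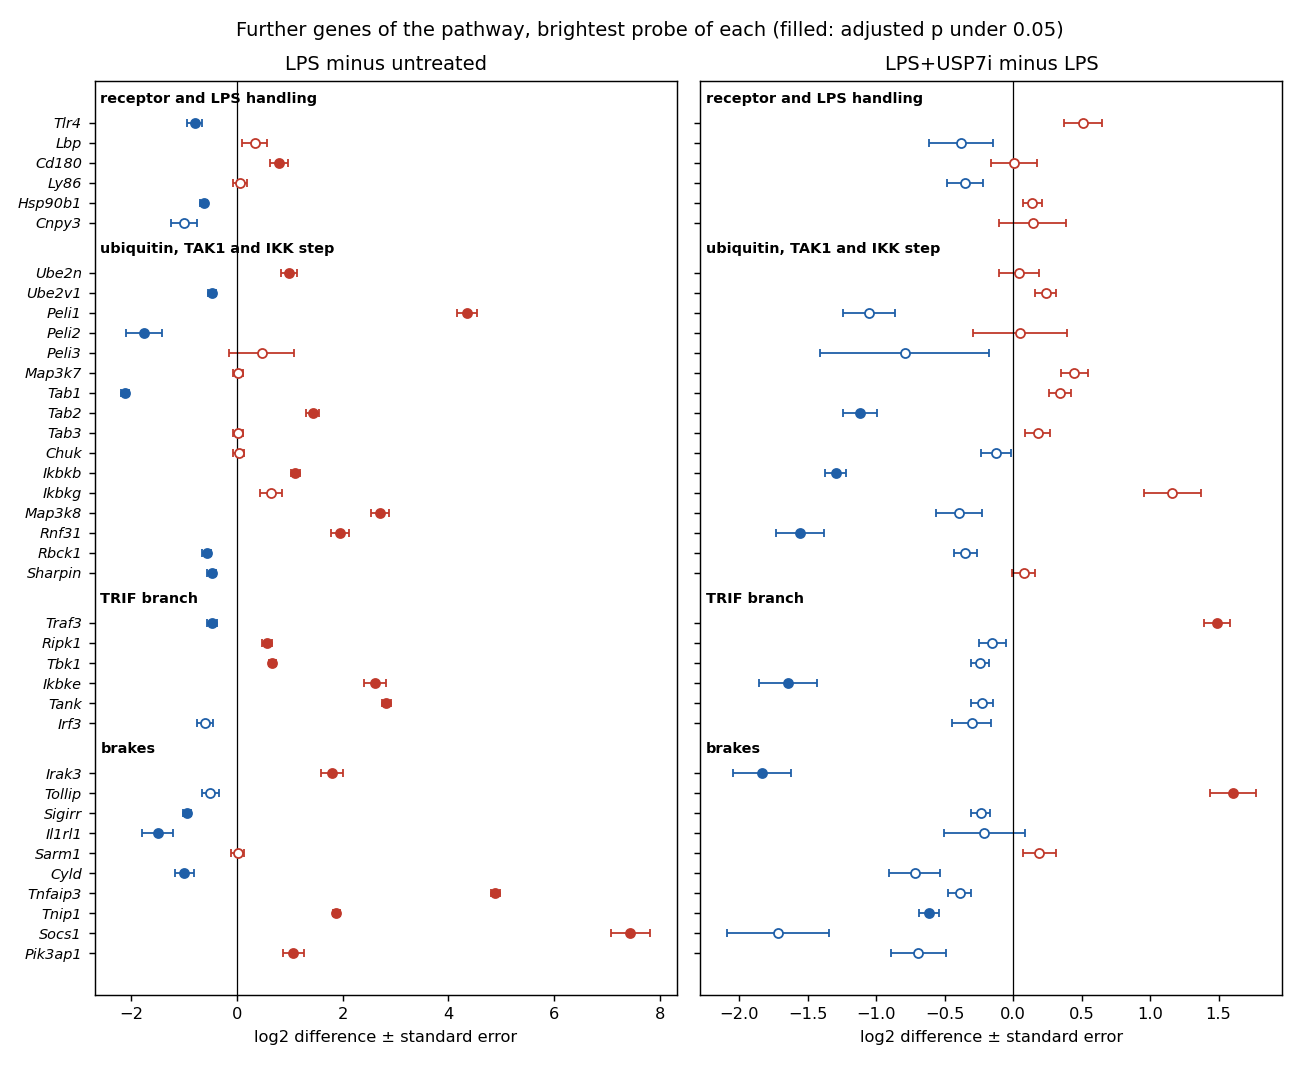
Log2 difference with its standard error for the brightest probe of each of the 38 pathway genes, by list, for LPS minus untreated on the left and LPS+USP7i minus LPS on the right, filled where the adjusted p is under 0.05. With the inhibitor *Traf3* and *Tollip*, at 1.49 and 1.61, stand to the right, and *Irak3*, *Ikbke*, *Rnf31*, *Ikbkb* and *Tab2*, between −1.83 and −1.12, to the left.

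The 250 bases before the transcription start were available from RefSeq (GRCm38.p6) for 7 of the 10 genes, as 9 promoters. *Cd14*, *Ly96* and *Ticam2* were missing from the table of promoters used. They were searched on both strands for the letters GGGNNTTNCC (κB), GAAANNGAAA (like an interferon-stimulated response element) and TGANTCA (AP-1), where N is any base. Among 32851 promoters 1350 (4.11%), 978 (2.98%) and 2217 (6.75%) held these letters in that order. Only *Myd88* held a match among the 9 promoters, GAAAGCGAAA on the strand of the gene, 40 to 31 bases before its start. The promoters of *Myd88* (chr9:119340019-119340268, minus strand) and *Irak2* (chr6:113638217-113638466, plus strand) are shown with the match in capitals, the first because it holds the match and the second because *Irak2* had the widest LPS difference of the 16 probes. A match is a description of the letters and no evidence of a binding site.
Myd88: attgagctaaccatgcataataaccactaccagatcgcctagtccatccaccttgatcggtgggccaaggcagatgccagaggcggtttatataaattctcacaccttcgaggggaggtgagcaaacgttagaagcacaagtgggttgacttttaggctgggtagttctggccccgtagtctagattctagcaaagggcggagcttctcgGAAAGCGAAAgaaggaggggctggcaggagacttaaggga
Irak2: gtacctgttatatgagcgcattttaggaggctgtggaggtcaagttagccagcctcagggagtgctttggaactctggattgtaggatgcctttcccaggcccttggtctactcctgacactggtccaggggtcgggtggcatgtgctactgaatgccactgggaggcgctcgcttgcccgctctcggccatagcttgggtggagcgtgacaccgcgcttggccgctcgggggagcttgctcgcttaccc

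The genes whose profile over the 6 arrays was most like that of the 3 members with the widest range of group means, among members well above background on all 6 arrays, which leaves out *Ticam2*, were found among 10394 genes well above background on all arrays, by the root mean square difference after each profile was centred on its own mean. Nearest to *Myd88* was *Ifi35*, at 0.0232, which measured 12.12 and 11.84 in untreated cells, 14.17 and 13.77 after LPS, and 12.90 and 13.03 after LPS+USP7i. *Zbtb49* (0.118) and *Slfn10-ps* (0.126) followed. Nearest to *Cd14* were *Sec24b* (0.0898), *Ccl9* (0.0904) and *Stx6* (0.0958). For *Irak2* the brighter probe, A_55_P2082979, was used, and the upstream probe, with an LPS difference of 2.81 against 1.43, was not. Nearest to that brighter probe were *I730030J21Rik* (0.0283), *Fnbp4* (0.044) and *Atp8a1* (0.0471). *Ifi35* thus had the smallest of these 9 differences.

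The data are 6 arrays of bulk RNA at 1 time point, with 2 arrays per group. The inhibitor was given only together with LPS, so its difference in cells without LPS was not measured. Protein, phosphorylation and ubiquitin were not measured either. Each comparison rests on a spread estimated with 3 residual degrees of freedom, and the inhibitor calls ended once untreated arrays were left out. The LPS calls of *Cd14*, *Myd88* and *Irak2* held under every alternative, and the other calls of the 10 genes each ended under at least 1. These LPS differences ran from 1.62 to 2.24 for *Cd14* and from 1.80 to 2.43 for *Myd88*. For *Irak2* they ran from 1.27 to 2.12 by the brighter probe and from 2.40 to 2.88 by the upstream probe.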

How the data were processed

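The 10 genes and the pathway lists were chosen with earlier results of these data known. From the scanner files deposited by the authors, the processed signal of spots that are not controls was used, an intensity that the software had corrected for background. Arrays were first quantile normalized over all these spots. Outlier spots were then set to missing, and spots of a probe were averaged on the log2 scale. Spots were assigned to a gene where the gene name equals the listed name. All 10 genes are named with every probe, as may be any listed pathway gene past the threshold, and others where their role is needed. The 3 groups were fitted in 1 limma model with an empirical Bayes prior (3 residual and 1.05 prior degrees of freedom), and p values were adjusted by Benjamini-Hochberg over 55680 probes. The code was tested on simulated data.

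The table of the authors is deposited in log2 units. Its array medians were 5.03 to 5.06, its correlation with the scanner values was 0.985 to 0.987, and its background correction is not named.

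Alternatives were 75th percentile scaling, normexp with an offset of 50, the deposited log2 values, dim probes left out, outlier spots kept, a trended prior, only the 2 groups compared, a replicate block, the mean over probes, a log2 difference of at least 1, and each array left out.

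R 4.3.3, limma 3.58.1, the R package data.table in version 1.17.8, Python 3.11.15 and matplotlib 3.10.9 were used.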

Additional observations from a re-analysis of the deposited data

How the results depend on the processing

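Counts of called genes are given as reported and then under each alternative that moved them by over 1.5 times. Smaller moves, not listed, took members higher for LPS minus untreated from 5 to between 4 and 7, and pathway genes higher for LPS+USP7i minus untreated from 11 to between 8 and 16. What causes a move was not tested.

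With 75th percentile scaling, members lower for LPS minus untreated went from 1 to 0, and members higher for LPS+USP7i minus LPS from 0 to 1. Members higher for LPS+USP7i minus untreated went from 4 to 7, where probes called higher went from 3147 to 21937 of all 55680. Pathway genes lower for LPS minus untreated went from 11 to 6. With normexp background correction these were 0 members lower for LPS minus untreated, 1 member higher for LPS+USP7i minus LPS, and 5 pathway genes higher for LPS+USP7i minus LPS in place of 2. With dim probes left out, with the trended prior and with the mean over all probes of a gene, 1 member was higher for LPS+USP7i minus LPS. The mean over all probes also left 1 of 2 members lower for LPS+USP7i minus untreated.

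With the deposited log2 values 0 members were lower for LPS minus untreated, 2 were higher and 1 was lower for LPS+USP7i minus untreated, and 6 pathway genes were lower for LPS minus untreated. With a log2 difference of at least 1 as well, 0 members were lower for LPS minus untreated, 0 were higher and 1 was lower for LPS+USP7i minus untreated, and the pathway genes lower were 3 for LPS minus untreated and 4 in place of 7 for LPS+USP7i minus untreated.

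With only the 2 groups compared, 0 members were lower for LPS minus untreated, 0 in place of 4 were lower for LPS+USP7i minus LPS, and 0 were higher and 0 lower for LPS+USP7i minus untreated. Pathway genes were 0 higher and 0 lower, in place of 2 and 6, for LPS+USP7i minus LPS, and 4 lower for LPS+USP7i minus untreated.

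With each array left out in turn, members for LPS minus untreated were 3 to 6 higher (5 as reported) and 0 to 0 lower. For LPS+USP7i minus LPS 0 to 2 members were lower, and for LPS+USP7i minus untreated 0 to 1 were higher and 0 to 1 lower. Pathway genes were 9 to 14 higher (16 as reported) and 2 to 8 lower for LPS minus untreated, 0 to 2 higher and 0 to 7 lower for LPS+USP7i minus LPS, and 4 to 8 higher (11 as reported) and 2 to 5 lower for LPS+USP7i minus untreated. The lone array left in a group is assumed to vary like the other groups.

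With a replicate block, 2 members were lower for LPS+USP7i minus LPS, and 1 was higher and 1 lower for LPS+USP7i minus untreated. The calls that ended were those of *Myd88* and *Irak2* for LPS+USP7i minus LPS, of *Ly96*, *Myd88*, *Ticam1* and *Ticam2* for LPS+USP7i minus untreated, and of *Ticam2* for LPS minus untreated, where *Traf6* gained one (adjusted p = 0.0324). Among pathway genes the block ended the calls of *Tab2*, *Rnf31* and *Irak3* for LPS+USP7i minus LPS, of *Tlr4* and *Traf3* for LPS minus untreated, and of *Tbk1* for LPS+USP7i minus untreated. It gained calls of *Cd180*, *Cnpy3*, *Peli2* and *Ikbke* for LPS+USP7i minus untreated, of *Cnpy3* and *Irf3* for LPS minus untreated, and of *Pik3ap1* for LPS+USP7i minus LPS. Samples of a replicate share only a number, which coincides with the slide column, and the labels do not say that it marks a shared batch. Deviations within groups correlated at 0.468, 0.398 and 0.422 between pairs of groups over 20720 probes.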
